A study of Sorghum bicolor with 4 samples.

Results

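In the stem of sweet sorghum (Sorghum bicolor, variety SSV84), 63 genes rose in the middle internode from booting to the milky stage and rose again from the milky stage to physiological maturity. They were chosen among the 26729 rows of the deposited table that carry 1 gene ID ending in 00, out of 34458 rows in all. A member had to gain at least 1 on the log2(FPKM + 1) scale, a doubling of FPKM + 1, at each of the 2 steps. FPKM is a level divided by transcript length and by the amount of mapped sequence. The members were thus chosen by the FPKM values of all 3 stages, so their rises are a description and carry no test.

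The plants were raised in an open field, and all groups share that variety, organ and growth setting. The labels list 2 booting libraries, 1 milky-stage library and 1 library of mature plants, with no treatment and no plant age. The table holds a single FPKM value per stage, made by the authors, and the sources used here do not say how many libraries entered it. Every value below is therefore the authors' stage value with no SD and no n, and no difference has a replicate check. In a bulk internode, more RNA per cell and more cells of a type cannot be told apart. Sequencing depth is unknown, so how precise the lowest values are is not known either.

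At booting the panicle is still enclosed by the sheath of the flag leaf, at the milky stage the grain holds a milky liquid, and at physiological maturity the grain has reached its final dry weight. The middle internode is by then a fully grown organ, in which the parenchyma of sweet sorghum stores sucrose and the vascular bundles and rind carry thickened, lignified walls. The files pair no gene ID with a name or function, and 0 of the 63 IDs matched RefSeq's gene table of the Sorghum_bicolor_NCBIv3 assembly. The members are therefore described by level, course over the stages and position, and none is given a name or a role.

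Of the 26729 rows, 2.81% rose at the first step (751 rows) and 3.07% at the second (821 rows), and the 63 that rose at both are 0.236% of them. The members are 8.39% of the rows that rose at the first step and 7.67% of those that rose at the second. Falls of the same size at both steps were found in 20 rows, 0.0748%. All 63 members reached 1 FPKM in at least 1 stage, as did 15323 of the 26729 rows, and read against those the members are 0.411%. The rule guarantees this, since a row under 1 FPKM throughout cannot double in FPKM + 1.

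Most members started low and ended above the median level of the rows with at least 1 FPKM in a stage. A rule that asks for rises at both steps favours such a course. At booting the lowest member stood at 0, the median at 1.29 and the highest at 56.1 FPKM. At the milky stage the lowest was 1.16, the median 5.67 and the highest 192 FPKM, and at maturity the lowest was 3.36, the median 22.4 and the highest 555 FPKM. The medians of the 15323 rows with at least 1 FPKM in a stage hardly moved over the same stages, at 11.7, 11.8 and 12.5 FPKM. Above that median lay 4 members in the booting stage, 19 in the milky stage and 45 at maturity. Together they held 0.0384% of the summed FPKM of all rows at booting, then 0.166%, and 0.600% in mature plants.

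**Figure D1:**
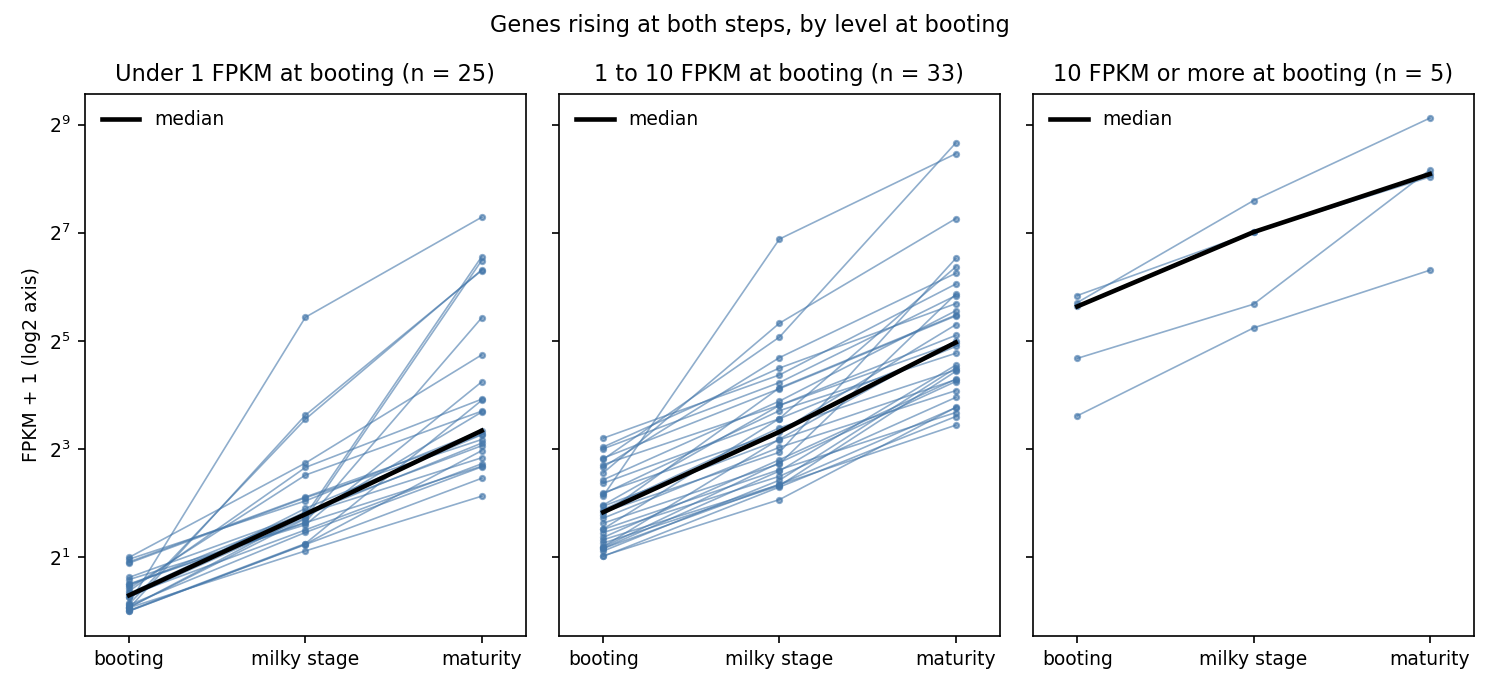
FPKM + 1 on a log2 axis at booting, the milky stage and maturity, with 1 blue line per gene and the black line joining the medians of the genes in the panel. Panels split the 63 genes by their level at booting, with 25 genes under 1 FPKM, 33 from 1 to 10 FPKM and 5 at 10 FPKM or more, and every line climbs at both steps because the genes were chosen so.

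The largest climb over the whole span belonged to Sobic.009G116700 (chromosome 9, 45915614 to 45916682 in the coordinates of the table, as are all positions here). Its level went from 0.106 FPKM at booting through 42.3 to 155 FPKM, with log2 differences of 5.29 and then 1.85. Most of its climb thus lay in the first interval. Sobic.001G418600 (chromosome 1, 69932393 to 69935701) had the same kind of course from a higher start, with 3.38, 117 and 351 FPKM and differences of 4.75 and 1.58. Among the 63 members these had the largest first steps.

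The largest second steps were those of Sobic.001G425600 and Sobic.003G082500, whose values nearly coincided at every stage although they lie on different chromosomes. Sobic.001G425600 (chromosome 1, 70540574 to 70541384) stood at 0.0480, 2.41 and 93.1 FPKM, with log2 differences of 1.70 and 4.78. Sobic.003G082500 (chromosome 3, 7078510 to 7079627) stood at 0.0485, 2.26 and 88.5 FPKM, with differences of 1.64 and 4.78. Both went from near 0 through a few FPKM to percentiles of 95.6 and 95.4 among the 26729 eligible rows at maturity.

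Only 4 members gained at least 2 on the log2 scale at each step. Sobic.006G093500 (chromosome 6, 46339259 to 46343909) stood at 0.0372, 11.3 and 77.7 FPKM. Sobic.005G086400 (chromosome 5, 11963279 to 11964212) stood at 0.0937, 10.7 and 78.5 FPKM. These were again close to each other in the later stages, on different chromosomes, with differences of 3.57 and 2.68 for the first and 3.42 and 2.76 for the second. Sobic.001G438000 (chromosome 1, 71623554 to 71624809) climbed from 6.0 through 32.5 to 403 FPKM, the second highest member at maturity. Sobic.009G196800 (chromosome 9, 54738567 to 54741184) climbed from 1.86 through 10.8 to 81.5 FPKM, with differences of 2.04 and 2.80.

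The members next in order of whole-span difference differed in the timing of their climb. Sobic.001G128200 (chromosome 1, 10093041 to 10094480) stood at 0.415, 2.12 and 41.9 FPKM, with log2 differences of 1.14 and 3.78. Sobic.004G314400 (chromosome 4, 65105699 to 65111713) stood at 4.88, 39.1 and 152 FPKM, with differences of 2.77 and 1.93. Sobic.001G517700 (chromosome 1, 78383472 to 78386988) stood at 2.09, 5.61 and 57.1 FPKM, with differences of 1.1 and 3.14. The first and the last of these climbed mainly late, while Sobic.004G314400 gained more in the first interval. Sobic.005G072300 (chromosome 5, 8695057 to 8697289) had the lowest value above 0 at booting, 0.00791 FPKM, and reached 1.38 and 13.9 FPKM, with differences of 1.24 and 2.65.

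Among the ranks 14 to 20 by whole-span difference, 5 members gained more at the first step or nearly the same at both. Sobic.001G081800 (chromosome 1, 6312929 to 6313841) stood at 1.29, 8.07 and 30.9 FPKM, and Sobic.004G075100 (chromosome 4, 6083593 to 6084324) at 0.990, 5.67 and 25.7 FPKM. Their steps were 1.99 and 1.82 for the first gene and 1.74 and 2.0 for the second, close to even. Sobic.004G115900 (chromosome 4, 12081743 to 12082719) stood at 2.44, 16.5 and 43.5 FPKM with steps of 2.34 and 1.35. Sobic.001G048900 (chromosome 1, 3574601 to 3578692) stood at 5.34, 24.8 and 75.1 FPKM with steps of 2.02 and 1.56. Sobic.001G451700 (chromosome 1, 72846861 to 72848880) stood at 0.293, 5.30 and 14.1 FPKM with steps of 2.29 and 1.26. These last 3 climbed more before the milky stage than after it. Sobic.004G287400 (chromosome 4, 62949913 to 62954167) and Sobic.010G150800 (chromosome 10, 43592743 to 43593468) did the reverse. The former stood at 0.497, 2.02 and 17.9 FPKM with steps of 1.01 and 2.64, and the latter at 24.5, 50.2 and 285 FPKM with steps of 1.0 and 2.48.

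The balance between the steps was even over the set. The first step was the larger in 32 members and the second in 31, and in 37 members the steps differed by no more than 0.5 on the log2 scale. The median gain was 1.31 at the first step, with a range of 1.0 to 5.29, and 1.46 at the second, with a range of 1.01 to 4.78. Over all 15323 rows with at least 1 FPKM in a stage the medians were −0.01 and 0.06. A second step larger than the first by at least 1 was found in 10 members, and a first step larger by that much in 3, namely Sobic.009G116700, Sobic.001G418600 and Sobic.001G451700. The added 1 weighs on this balance, because it shrinks the first step of a gene near 0 more than its second. Both steps also use the same milky value, so an error in it would raise 1 step and lower the other. The same holds for the ratios below.

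**Figure D2:**
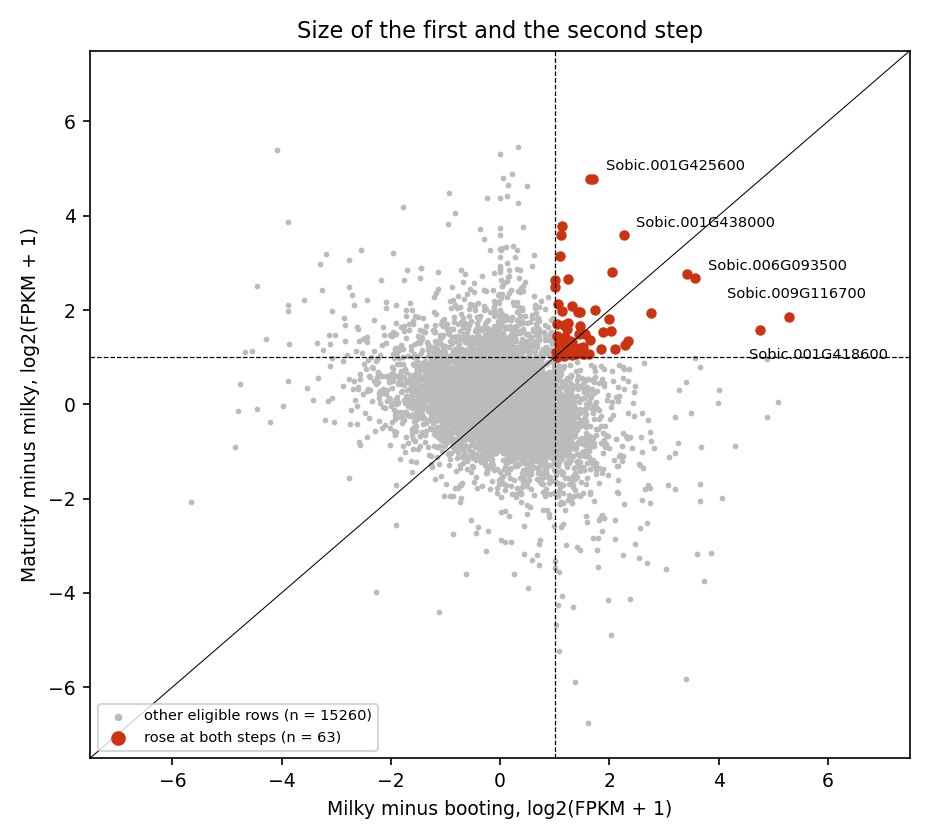
Difference in log2(FPKM + 1) from booting to the milky stage (horizontal axis) against that from the milky stage to maturity (vertical axis), with 1 point per row that carries 1 gene ID ending in 00 and reached 1 FPKM in a stage. Red points are the 63 members, dashed lines mark the threshold of 1 and the diagonal marks equal steps; 32 members lie below the diagonal and 31 above it.

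On plain ratios of FPKM, with no added 1, the first interval was the steeper. Among the 61 members above 0 at booting, the milky value was 2.04 to 399 times the booting value, with a median of 3.85. The maturity value was 2.04 to 39.1 times the milky value, with a median of 3.08. A ratio of 10 or more was found in 14 of these members at the first step and in 7 at the second. Over both steps the ratio ran from 4.64, in Sobic.007G047400, to 2088, in Sobic.006G093500, with a median of 14.1. Among the 38 members with at least 1 FPKM at booting, the medians of the steps were 3.13 and 3.06. The steepness of the first interval thus came with the members near 0 at booting, where a ratio rests on a very small value. The rule itself forces a large first ratio there, because FPKM + 1 had to double. At the second step it forces less, since no member was below 1.16 FPKM at the milky stage. The contrast between the intervals is therefore partly built in.

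Members that were below 1 FPKM at booting numbered 25, or 39.7% of the set, against 8.0% of all rows with at least 1 FPKM in a stage. Rows that rose at the second step and stayed within the threshold at the first had nearly the same share, 38.7%. Rows that rose at the first and stayed within the threshold at the second had 28.2%. A low start was thus common to rising rows, and a rule that asks for rises favours it. The medians of the 25 members were 0.224, 2.46 and 9.10 FPKM over the stages. At maturity 12 of the 25 reached 10 FPKM and 1, Sobic.009G116700, reached 100. Sobic.002G118300 (chromosome 2, 14746539 to 14747754) was listed at 0 at booting, with 1.36 and 6.82 FPKM in the later stages. Sobic.006G018400 (chromosome 6, 3076062 to 3082312) was also listed at 0, with 1.35 and 4.48 FPKM thereafter. No fold from booting is given for these. A further 7 members lay between 0 and 0.1 FPKM at booting, and the smallest member at maturity, Sobic.009G181700, was among them with 0.0436, 1.16 and 3.36 FPKM.

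Others of the low starters ended at moderate levels. Sobic.001G475400 stood at 0.195, 2.30 and 11.8 FPKM and Sobic.009G022700 at 0.336, 4.72 and 12.0 FPKM. They reached nearly the same level at maturity, the former by a larger second step and the latter by a larger first step. Sobic.007G094900 stood at 0.190, 2.73 and 8.59 FPKM, Sobic.001G506400 at 0.254, 2.57 and 7.33 FPKM, and Sobic.001G073300 at 0.387, 2.46 and 7.60 FPKM. These 3 followed similar courses in FPKM. As ratios they differed more, with maturity values 45.1, 28.9 and 19.7 times the booting values.

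The 33 members between 1 and 10 FPKM at booting had medians of 2.55, 8.96 and 30.3 FPKM. All but 1 of them reached 10 FPKM at maturity, the exception being Sobic.005G171300 with 1.49, 4.05 and 9.84 FPKM. Besides Sobic.001G438000, Sobic.001G418600 and Sobic.004G314400, no member of this group reached 100 FPKM. The second step was the larger in 20 of the 33. Sobic.001G425500 (chromosome 1, 70539438 to 70540272) showed the widest gap between the steps in this direction, with 2.55, 6.66 and 90.9 FPKM and differences of 1.11 and 3.58. Sobic.002G403600 stood at 8.18, 19.6 and 65.2 FPKM and Sobic.001G472800 at 7.01, 17.7 and 56.1 FPKM. Sobic.003G356500 stood at 4.38, 13.8 and 46.0 FPKM and Sobic.002G047400 at 3.55, 8.96 and 38.3 FPKM. In each of these 4 the value at maturity was at least 3 times that at the milky stage.

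Only 5 members were already at 10 FPKM or more at booting, and they supplied 62.9% of the summed FPKM of the set at that stage. Sobic.007G047400 (chromosome 7, 4745498 to 4758500) stood at 56.1, 128 and 260 FPKM, Sobic.010G134700 (chromosome 10, 19878436 to 19882014) at 51.2, 192 and 555 FPKM and Sobic.002G190300 (chromosome 2, 57659030 to 57665873) at 48.7, 128 and 270 FPKM. Sobic.010G134700 was the highest member at the milky stage and at maturity, while Sobic.007G047400 and Sobic.002G190300 stayed close to each other throughout. Sobic.010G150800, described above, and Sobic.001G510400 (chromosome 1, 77810869 to 77813714), with 11.2, 36.7 and 78.0 FPKM, complete the group. In 4 of the 5 the first step was the larger, with medians of 1.38 for the first and 1.07 for the second. At maturity 4 of the 5 exceeded 100 FPKM, and all lay between the 94.7th and the 99.6th percentile of the eligible rows.

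By rank of FPKM among the 26729 rows of a stage, the median member stood at the 48.9th percentile at booting, the 61.6th at the milky stage and the 80.5th at maturity. The range at maturity was from the 55.2nd to the 99.6th percentile. The greatest shift in rank at a single step was that of Sobic.009G116700, from the 35th to the 89.8th percentile between booting and the milky stage. At maturity 8 members, 12.7%, stood at 100 FPKM or more, against 5.96% of the 503 rows that rose at the first step and stayed within the threshold at the second, and 5.17% of the 600 rows that stayed within it at the first and rose at the second. Those are the rows called below rising at the first or the second step only. Over the 15323 rows with at least 1 FPKM in a stage the share was 6.95%. The rule used the maturity values and asked the members for gains at both steps, so it favours a higher end level. The difference is a description and was not tested.

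**Figure D3:**
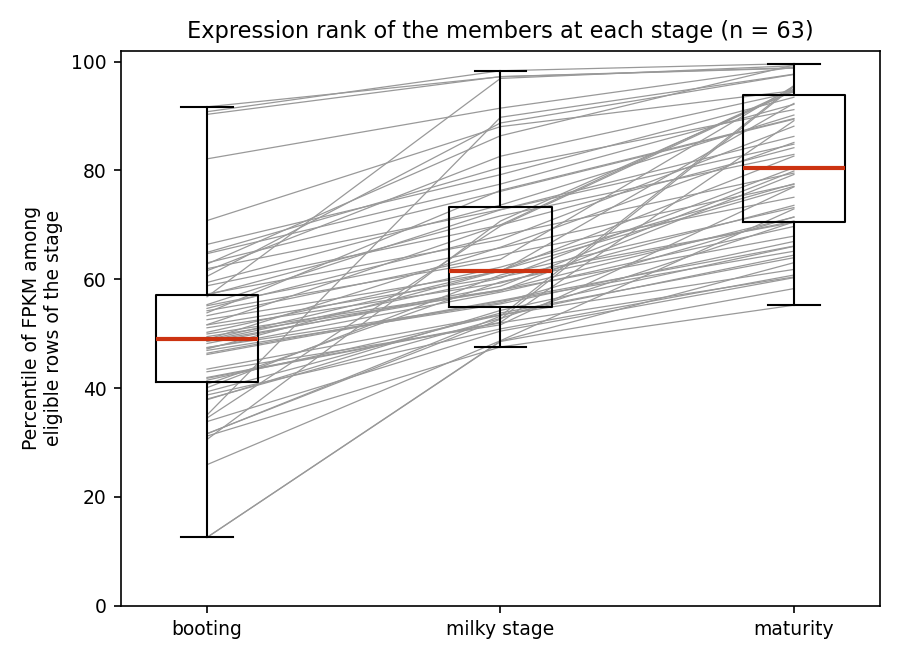
Percentile of each member's FPKM among the 26729 eligible rows of the stage (vertical axis) at booting, the milky stage and maturity (horizontal axis). Grey lines are the 63 members, boxes span the quartiles with the median in red and whiskers end at the lowest and highest member; the median climbs from 48.9 to 61.6 and to 80.5.

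Position was not used to choose the members. Chromosome 1 carried 23 of the 63, or 36.5%, against 18.8% of the 15323 rows with at least 1 FPKM in a stage. Rows that rose only at the first step lay on chromosome 1 in 19.5% of cases, and rows that rose only at the second in 21.3%. Of the 20 rows that fell at both steps, 6 lay there (30%). Chromosome 2 carried 10 members, chromosomes 4 and 9 carried 6 each, chromosomes 3, 5 and 10 carried 4 each, and chromosomes 6, 7 and 8 carried 2 each. Per 1000 rows with at least 1 FPKM in a stage, this came to 8.0 members on chromosome 1, 5.71 on chromosome 5, 5.06 on chromosome 2 and 1.51 on chromosome 6. On chromosome 1 itself, 11 of the 23 lay between 70 Mb and the end of the chromosome, among 743 such rows, and 5 lay in the first 10 Mb, among 745. These counts carry no test, and the chromosome was singled out after they were seen.

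**Figure D4:**
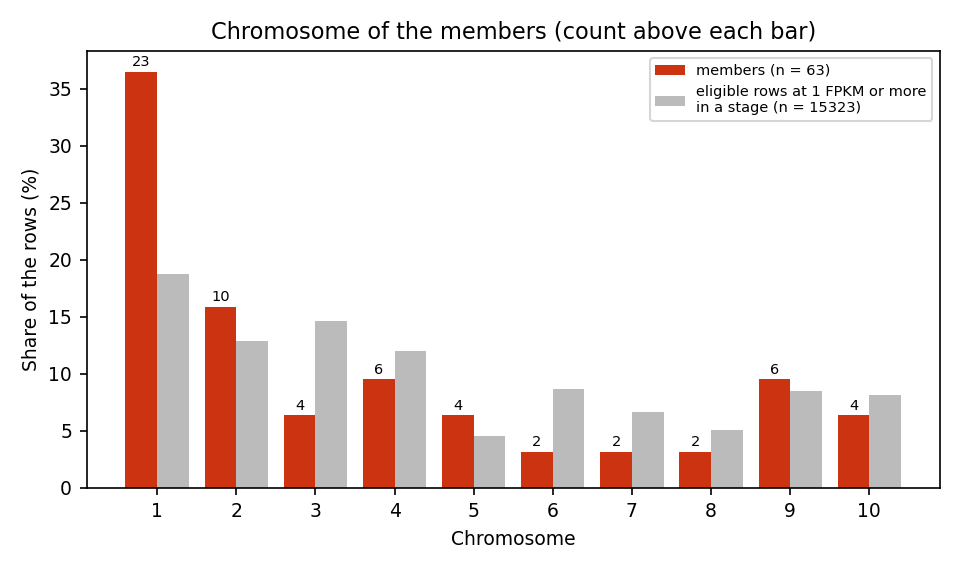
Share of rows in percent (vertical axis) on each of the 10 chromosomes (horizontal axis), for the 63 members in red and for the 15323 eligible rows with at least 1 FPKM in a stage in grey. Numbers above the red bars are counts of members, and chromosome 1 holds 23 of them.

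Immediate neighbours among the members were found once. Sobic.001G425500 and Sobic.001G425600 lie 302 bp apart on chromosome 1 with no row between them. They differed at booting, at 2.55 and 0.0480 FPKM, and nearly met at maturity, at 90.9 and 93.1 FPKM. The rows on either side did not follow them. Sobic.001G425400 stood at 31.2, 17.4 and 20.1 FPKM, and the merged row of Sobic.001G425700 and Sobic.001G425750 at 17.7, 14.1 and 17.2 FPKM. The next closest members, Sobic.001G423600 and Sobic.001G425500, lie 149 kb apart with 22 rows between them. Whether reads were shared between the adjacent pair was not tested.

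Sobic.003G082500 lies close to a locus that was not eligible because its rows merge several gene IDs. That locus, on chromosome 3 from 7023231 to 7058676, holds a row at 0.304, 16.2 and 1388 FPKM and another at 49.1, 341 and 3077 FPKM, so both also rose at each step. The rows in between did not. Sobic.003G082300 stood at 233, 299 and 153 FPKM and Sobic.003G082401 at 0.842, 0.415 and 0.723 FPKM. On the other side Sobic.003G082600 stood at 13.5, 25.4 and 13.7 FPKM, a course that turned back after the milky stage.

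Over all members, 126 rows flanked them, 1 on each side, of which 75 reached 1 FPKM in a stage. From booting to maturity 10 of the 75 rose by at least 1 on the log2 scale (13.3%) and 5 fell (6.67%). The share over all 18505 rows at that level was 8.10% for rises and 6.19% for falls. Without the adjacent pair of members, 8 of 73 rose (11%), near the share over all rows. Rows that flanked a member and rose with it included Sobic.003G094100, 393 bp from Sobic.003G094200. It stood at 4.22, 6.49 and 19.6 FPKM, while the member stood at 7.20, 21.6 and 50.5 FPKM. Sobic.001G264400, 1534 bp from Sobic.001G264300, stood at 0.509, 0.539 and 4.75 FPKM, while the member stood at 1.27, 5.70 and 18.0 FPKM. In both cases the flanking row gained mainly after the milky stage, whereas the member gained about as much or more before it. Most flanking rows stayed near their level, with a median whole-span difference of 0.21, against 0.04 over all rows.

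The loci of 8 members were shared with a second row of another gene ID, so the coordinates and length there belong to the locus and not to the member alone. Sobic.003G356500 shared its locus with Sobic.003G356400, which stood at 2.10, 13.7 and 24.4 FPKM and rose at the first step. Sobic.009G022700 shared its locus with Sobic.009G022600, at 0.132, 0.873 and 2.79 FPKM, which rose at the second. Sobic.004G314400 shared its locus with Sobic.004G314500, at 51.9, 37.9 and 42.7 FPKM, and Sobic.002G047400 with Sobic.002G047500, at 17.5, 17.3 and 16.4 FPKM. Neither of these partners changed by the threshold at a step or over the whole span. In the other 4 loci the partner stayed under 1 FPKM at every stage. The sources used here do not say how fragments were divided between rows of a locus.

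The members' loci were shorter at the median than those of the rows they were chosen from. Their median locus length was 2845 bp, against 3499 bp over the 26729 eligible rows. Over the 15323 rows with at least 1 FPKM in a stage it was 4343 bp. Loci under 1500 bp made up 25.4% of members, 16 of 63. They made up 18.6% of the eligible rows and 7.48% of the 15323. Of the 16, 11 were among the 20 members with the largest whole-span difference, whose median length was 1347 bp. The remaining 43 had a median of 3165 bp, with 11.6% under 1500 bp. Among loci that no other row shares, medians were 2431 bp for 55 members and 3922 bp for 12924 rows reaching 1 FPKM. Rows that rose at the second step only had a median of 3064 bp, with 17.8% under 1500 bp. Rows that rose at the first step only had 3874 bp and 14.5%. The 20 rows that fell at both steps were as short as the members, with a median of 2963 bp and 5 of 20 under 1500 bp. Against rows reaching 1 FPKM, short loci thus went with large differences. Against all eligible rows, those that rose at 1 step only held no larger share of short loci. Locus length here is the span from start to end on the chromosome, not the transcript length that FPKM is divided by. How far the length scaling of FPKM has a part in this was not tested.

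The threshold cut through a continuous range. Just inside it lay Sobic.010G150800 with a first step of 1.0 and Sobic.009G181700 with a second step of 1.01. Just outside it lay Sobic.007G158600, with 0.389, 1.77 and 4.53 FPKM and steps of 0.99 and 1.0, and Sobic.007G129100, with 0.399, 1.89 and 4.75 FPKM and steps of 1.05 and 0.99. The most marked near miss was Sobic.007G109800, which rose from 0.434 to 16 FPKM by 3.57 and then to 32.5 FPKM by 0.98. A first step between 0.9 and 1 kept out 15 rows that passed the second, and a second step in that range kept out 5 that passed the first. Of the members, 10 had a first step and 11 a second step under 1.1. After rescaling the stages by the median of ratios 53 rows met both thresholds, and after quantile normalization 52. Under both scalings 6 members missed a threshold, namely Sobic.001G423600, Sobic.002G018300, Sobic.002G394100, Sobic.007G047400, Sobic.009G181700 and Sobic.010G245100. A further 4 did so under the rescaling alone, among them Sobic.002G190300 and Sobic.001G510400, and 6 under quantile normalization alone, among them Sobic.004G287400 and Sobic.005G171300. With 5 added to FPKM in place of 1, only 13 members met both thresholds, and Sobic.001G425600 and Sobic.003G082500 were not among them.

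Rows of other kinds met the same thresholds in 11 cases, which brings the rows rising at both steps to 74. Of these, 6 merged several gene IDs, 3 carried an ID that does not end in 00 and 2 had no gene ID. Sobic.010G012001 stood at 0.0883, 19.5 and 58.4 FPKM and Sobic.010G229450 at 3.57, 21.3 and 89.0 FPKM. An unannotated row on chromosome 3 from 3611777 to 3613919 stood at 0.408, 2.31 and 20.9 FPKM. The highest of the 11 after the chromosome 3 pair was the merged row of Sobic.003G039300 and Sobic.003G039400, with 125, 455 and 969 FPKM.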

How the data were processed

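Total RNA of the middle internode was measured by RNA-seq, with a stranded total RNA kit per the labels' protocols. The submitters' processing notes name Cuffdiff, HISAT2 2.0.5, Bowtie2 2.2.9 and cutadapt 1.8.1, without their roles. The sources used here give no genome build. The deposited values are FPKM per stage, made by the authors, per the file headers. From them the log2(FPKM + 1) differences between stages were computed for every row, with a threshold of 1. With 1 value per stage no test could be run and no p-value is given. Flanking rows are the nearest row on each side of a member with another locus. The members, thresholds and gene lists were chosen with earlier results of these data known. All members could be named, with full values for the 20 largest whole-span differences; the others named were picked after their values were seen. The 26 gene lists fixed by description words found no row, because neither the files nor the RefSeq gene table holds descriptions. Promoter motifs were not searched, since no sequences were used here. The code was tested on simulated data that left out rows with low booting values, where many members start. Python 3.11.15, numpy 2.4.6, pandas 2.3.3 and matplotlib 3.10.9 were used.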

Additional observations from a re-analysis of the deposited data

How the results depend on the processing

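The number of genes rising at both steps depends on how much weight low values receive. Against 63 in the main setting, a pseudocount of 0.1 gave 208 rows, which included all 63, a pseudocount of 5 gave 13 and a log2 difference of at least 2 at both steps gave 4. Rescaling by the median of ratios gave 53, quantile normalization 52, of which 51 were members, a filter of at least 5 FPKM in the highest stage 61, and all kinds of rows 74. Members kept under both scalings numbered 47, and 12 were kept under both scalings and both pseudocounts. With a pseudocount of 5 the median first step of the 63 members was 0.73 and the second 1.1, and with 0.1 they were 1.91 and 1.60, so the order of the medians turned with 0.1. The direction of the moves in number with the pseudocount, the stricter threshold and the filter follows from how those settings are built. The median of ratios divided the booting, milky and maturity values by 0.986, 0.983 and 1.04, which lowers second steps. The 10 members lost under it missed the threshold at the second step, with values of 0.945 to 0.999. The 12 lost under quantile normalization missed it at the first or the second step, with values of 0.904 to 0.998. Why the stages differed in these factors was not tested. The locus length restricted to unshared loci was added after seeing the data. No paired analysis was possible because the table gives 1 value for each stage, and no library could be left out either. The promoter window was not run.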
